A study of Caenorhabditis elegans with 2 samples.

Results

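The genes described here encode the nuclear parts of the mitochondrial respiratory chain and of ATP synthase in the nematode Caenorhabditis elegans. They were taken by name from the Ensembl annotation of assembly WBcel235 (also called ce11): every protein-coding gene whose name starts with nuo-, ndu, sdha-, sdhb-, sdhc-, sdhd-, ucr-, cyc-, cox- or atp-, together with gas-1, isp-1, lpd-5, asb-1, asb-2 and asg-1. This gave 69 of the 19973 protein-coding genes on the 6 nuclear chromosomes. The 12 protein-coding genes of the mitochondrial genome were not counted: this annotation gives a name to 3 of them, and the rule matched 0. ZTF-4, named as a zinc finger transcription factor, was mapped by chromatin immunoprecipitation and sequencing (ChIP-seq) in whole L1 larvae of pooled sexes. There was 1 group with 2 biological replicates, both of strain OP322, which carries unc-119(ed3) III and the insertion wgIs322 encoding eGFP-ztf-4, a fusion to green fluorescent protein. The labels list ztf-4 in the antibody field, while neither the antibody itself nor the promoter of the insertion is stated there, and the control was not analysed here. The authors deposited regions called in each replicate and on both replicates pooled. They also deposited a thresholded list of 1898 peaks from the irreproducible discovery rate (IDR) procedure, which compares ranks between replicates. The promoter window of a gene was taken as the stretch between 1000 bp before its annotated 5' end and 200 bp past it. Of the 69 genes, 20 had the summit of an IDR peak in that window, which is 29.0% (exact Clopper-Pearson 95% interval 18.7% to 41.2%, counting error only), against 6.07% of all protein-coding genes.

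The respiratory chain passes electrons from NADH through complex I, and from succinate through complex II, to ubiquinone, then through complex III and the small carrier cytochrome c to complex IV, which reduces oxygen. Complexes I, III and IV pump protons across the inner mitochondrial membrane, and ATP synthase, or complex V, uses the returning protons to make ATP. Most subunits are encoded in the nucleus and imported, while a few core subunits are encoded by the mitochondrial genome. In C. elegans, mutants of several of these genes, among them isp-1, gas-1 and nuo-6, are known for altered respiration and lifespan.

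Sequences around 10 of the members' IDR summits show which letters the peaks hold and how they differ. Each is the 101 bases centred on the summit, from the RefSeq genome of WBcel235 (ce11), written 5' to 3' on the gene's strand. Capitals mark any of 6 motifs searched on both strands. The motif ACGCAG, the form GACGCA shifted by a base and, shifted again, AGACGC, the palindrome GCGCGC, and with it the motif CGCGCC are the 5 6-mers most concentrated at all IDR summits of the series relative to windows 300 bp to either side. The motif GCGCGTTTC was picked after the members' own sequences had been read. The first 3 motifs overlap one another within the run AGACGCAG, and CGCGCC, read on its other strand as GGCGCG, overlaps the start of GCGCGTTTC. The strongest peak, that of cox-5A, holds GACGCA, the peaks of ndub-8 and asb-2 hold the first 3 motifs in 1 run, and that of ucr-2.2 holds GACGCA and, at a separate place, AGACGC.
cox-5A (chrIII:12905148-12905248, plus strand): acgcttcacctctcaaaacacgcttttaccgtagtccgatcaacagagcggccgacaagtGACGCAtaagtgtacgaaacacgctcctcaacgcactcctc
ndub-8 (chrII:13872643-13872743, plus strand): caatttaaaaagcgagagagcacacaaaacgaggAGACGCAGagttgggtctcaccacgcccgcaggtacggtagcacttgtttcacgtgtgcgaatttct
asb-2 (chrX:4469429-4469529, plus strand): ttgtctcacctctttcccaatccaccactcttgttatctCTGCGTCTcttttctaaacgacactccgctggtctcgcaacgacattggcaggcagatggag
ucr-2.2 (chrX:15173678-15173778, plus strand): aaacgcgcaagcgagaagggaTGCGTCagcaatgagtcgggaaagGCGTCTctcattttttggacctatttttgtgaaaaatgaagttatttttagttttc
The next 4 are shown for their GC-rich motifs: sdha-1, nduf-11 and nduv-3 hold GCGCGTTTC, which nduf-11 holds at a pair of places, and nduf-2.2 holds CGCGCC alone in the most GC-rich of the windows printed.
sdha-1 (chrX:8546187-8546287, minus strand): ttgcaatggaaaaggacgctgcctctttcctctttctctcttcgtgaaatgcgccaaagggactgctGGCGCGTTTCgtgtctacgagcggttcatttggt
nduf-11 (chrII:11345765-11345865, minus strand): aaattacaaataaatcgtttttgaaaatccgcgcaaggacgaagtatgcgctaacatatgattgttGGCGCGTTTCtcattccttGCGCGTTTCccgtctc
nduv-3 (chrIV:2641132-2641232, plus strand): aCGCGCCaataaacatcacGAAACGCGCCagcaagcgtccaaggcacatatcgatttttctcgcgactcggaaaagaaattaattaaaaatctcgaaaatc
nduf-2.2 (chrIII:6464345-6464445, plus strand): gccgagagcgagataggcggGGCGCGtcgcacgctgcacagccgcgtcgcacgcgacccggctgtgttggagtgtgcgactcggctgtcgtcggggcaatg
The last 2 hold none of the 6 motifs although both peaks passed IDR.
ndua-8 (chrIII:2528760-2528860, plus strand): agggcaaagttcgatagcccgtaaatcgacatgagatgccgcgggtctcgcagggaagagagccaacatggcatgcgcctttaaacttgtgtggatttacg
cox-14 (chrIII:10218747-10218847, plus strand): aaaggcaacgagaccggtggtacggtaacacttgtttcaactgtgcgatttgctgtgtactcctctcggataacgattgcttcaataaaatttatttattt

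Within 50 bp of the summit, 13 of the 20 members' peaks (65%) held at least 1 of the 5 6-mers, against 377 of all 936 IDR peaks that lay in a promoter window (40.3%). Since the 5 6-mers were chosen on all IDR peaks, the members' included, and no test was made, these are descriptions. ACGCAG lay in 3 member peaks (15%), against 19.0% of all promoter peaks. GACGCA lay in 4 (20%), against 21.6%, and AGACGC in 5 (25%), against 16.6%. The GC-rich pair showed GCGCGC in 2 member peaks (10%), against 8.65%, and CGCGCC in 5 (25%), against 10.3%. With 20 peaks, 1 peak is 5% of them, and the share for ACGCAG, like that for GACGCA and also that for GCGCGC, differed from that of all promoter peaks by less. The median GC content of the windows was 50% in the members and 47.5% in all promoter peaks.

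The longer motif GCGCGTTTC lay within 50 bp of the summit in 4 of the 20 member peaks, those of nduf-11, nduv-3, nuo-2 and sdha-1 (20%), against 25 of 936 promoter peaks (2.67%). It lay in 0 of the members' windows 300 bp to either side. From 250 bp before to 50 bp after the gene's 5' end, it was found in 5 of the 20 members with an IDR promoter peak, the same 4 genes and ucr-2.2, and in 1 of the 49 members without, ndus-8. Over all protein-coding genes the shares were 2.80% of those with an IDR promoter peak and 0.229% of those without. As the motif was chosen on these sequences, its share in the members has no test. Of the 20 members' windows, 14 were compared with one another for shared stretches, and that of nuo-2 was not among them. The longest stretch common to any pair among the 14 members' windows so compared was 17 bases, TGCTGGCGCGTTTCGTG, present in sdha-1 and, on the other strand, in nduv-3, and in 0 further promoter peaks of the 936. Its gene pair encodes the flavoprotein of complex II and a small flavoprotein-arm subunit of complex I.

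The level of each region is the height that the authors' caller gave it, here called signal. Depth is unknown because the files hold no read counts. Pooled signals lay near the sum of both replicates' signals for the members (median ratio 1.00, from 0.954 to 1.098), so a pooled signal was not set against a replicate's. The replicates' signals were set side by side as deposited, and whether they had been scaled to depth is not known, so a higher value in either replicate is one of deposited signal only. The IDR peaks were the 1898 strongest of 23044 pooled regions, with signals from 49.6 to 904. A place in the list thus went with pooled signal, and did not require a high rank in each replicate. Of the 1213 genes with an IDR promoter peak, 1169 had a matched region in both replicate lists. The replicate lists held 27643 regions in replicate 1 and 27140 in replicate 2. In whole animals, binding in fewer cells and less binding per cell cannot be told apart. In the 20 members with an IDR peak the pooled signal ran from 50.2 to 486 with a median of 97.2, against a median of 78.3 over all 1213 genes with an IDR promoter peak. Of the 20, 13 lay above that median and 3 in the strongest decile of all IDR peaks. For the decile no share over all genes is given here, so the count of 3 describes the members only. Another 26 members had a region of the pooled list only, with signals from 14.6 to 45.3, and 23 had no pooled region in the window. The plot of signal by complex shows each of the 46 members with a region.

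**Figure D1:**
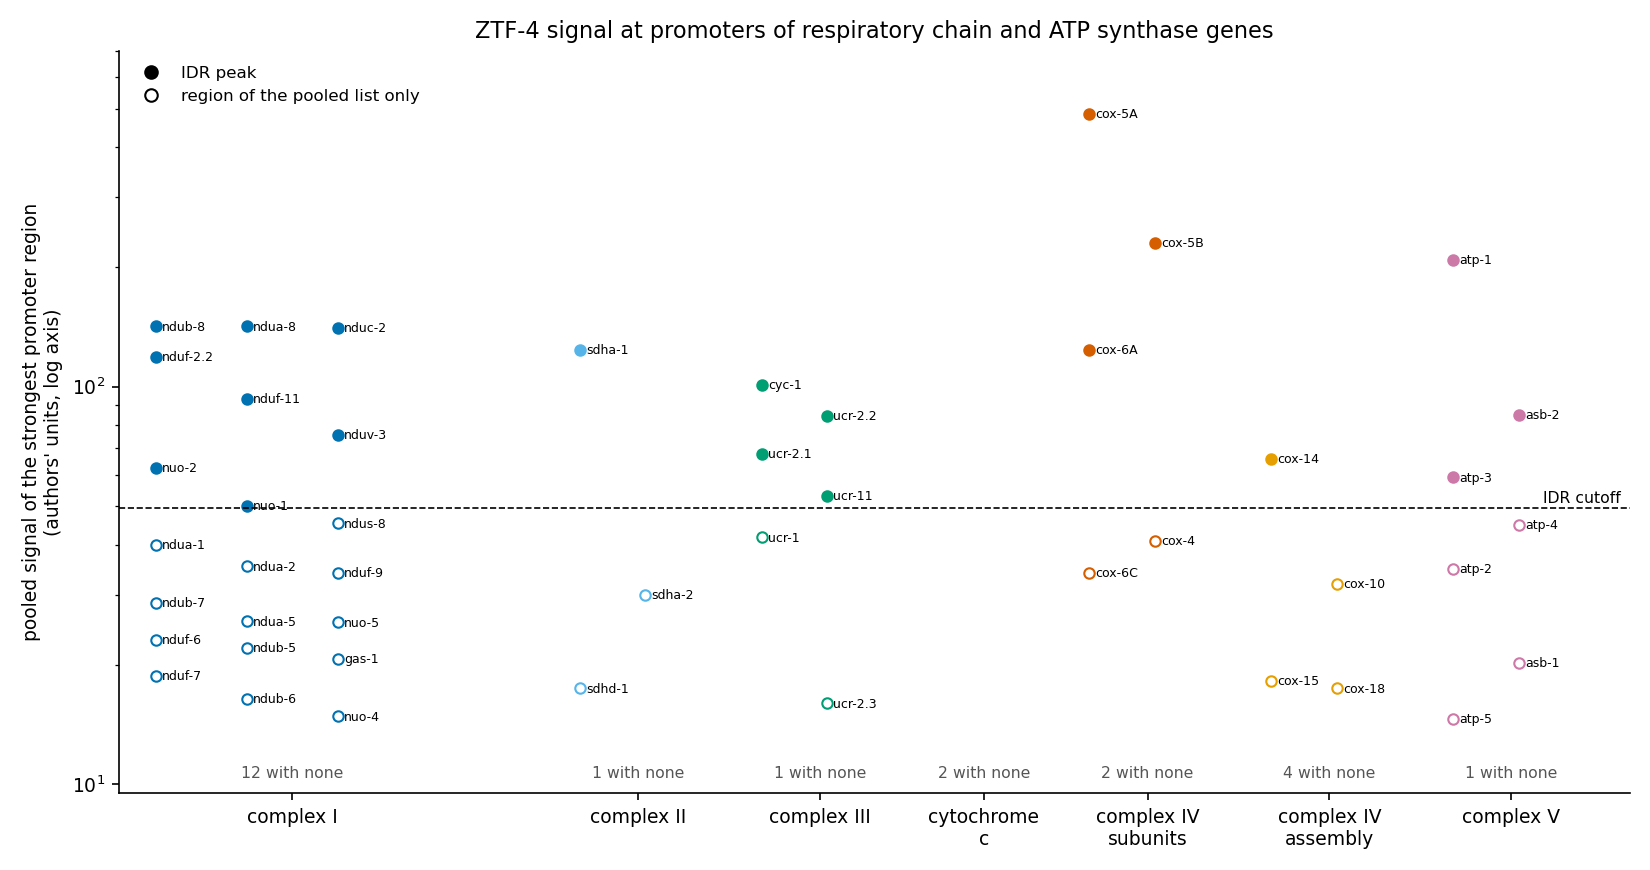
Pooled signal (the authors' units, log axis) of the strongest promoter region of each member, by complex, with filled points for IDR peaks, open points for regions of the pooled list only, and the number of members with none below. The complex IV subunits cox-5A (486) and cox-5B (230) and the ATP synthase gene atp-1 (208) stand highest, and 20 points lie above the IDR cutoff of 49.6.

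Complex I, the NADH dehydrogenase and the largest complex of the chain, had an IDR promoter peak at 8 of its 33 genes (24.2%), with a median pooled signal of 106. With peaks shared with another gene left out the count was 2 of 33 (6.06%), against 3.15% of all protein-coding genes under that rule. By the nearest 5' end only it was 4 of 33, against 4.58% of all genes. In a window from 300 bp before to 100 bp past the 5' end it was 5 of 33, against 3.6%. Another 13 had a pooled region only and 12 had none. At the top, 3 genes of accessory subunits lay level. For ndub-8 (chrII:13872518-13872867) the pooled signal was 142, with 71.4 in replicate 1 and 68.4 in replicate 2. For ndua-8 (chrIII:2528635-2528984) it was 142, with 76.9 and 65.5 in replicates 1 and 2. For nduc-2 (chrIII:2786018-2786107) it was 140, with 47.9 in replicate 1 and 94.1 in replicate 2, so the replicates stood further apart there than at ndub-8 or ndua-8. The nduc-2 summit lay 818 bp upstream of its 5' end, inside an intron of the complex IV gene cox-6B and in the window of Y71H2AM.20 on the other strand.

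Among the subunits of the electron-carrying arm of complex I, nduf-2.2, which encodes the 49 kDa subunit, had a pooled signal of 118.7 (chrIII:6464220-6464569), with 57.0 in replicate 1 and 67.5 in replicate 2. Its paralog gas-1, which encodes another 49 kDa subunit and is known from an anaesthetic-sensitive mutant, had only a pooled region of 20.7, with a matched region of 11.8 in replicate 1 and none in replicate 2. A region of 11.3 did lie in the gas-1 window in replicate 2, with its summit over 100 bp from the pooled summit. The peak of nduv-3 (chrIV:2641007-2641356) reached 75.7, with 28.4 and 47.3 in replicates 1 and 2. The peak of nuo-2 (chrI:6531959-6532308), the gene of the 30 kDa subunit, reached 62.4, with 33.7 and 29.7. The peak of nuo-1 (chrII:11097349-11097698), the gene of the NADH-binding subunit, reached 50.2, with 27.5 and 23.4, and was the weakest of the 20. The remaining complex I gene, nduf-11 (chrII:11345640-11345989), had 93.4 pooled, 44.8 in replicate 1 and 43.6 in replicate 2. Just below the cutoff lay ndus-8, the gene of an iron-sulfur subunit, with 45.3 pooled, 14.9 in replicate 1 and 29.4 in replicate 2, and ndua-1, an accessory subunit gene, with 39.96 pooled, 16.7 and 23.2. Genes of the same electron-carrying arm were thus found on both sides of the cutoff: nuo-5, the gene of the 75 kDa subunit, had a pooled region of 25.5, and lpd-5 and nduv-2 had none.

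Complex II, the succinate dehydrogenase that also serves the citric acid cycle, had an IDR promoter peak at 1 of its 4 genes. This was sdha-1, the gene of the flavoprotein subunit, with a pooled signal of 124 (chrX:8546062-8546411), 61.8 in replicate 1 and 64.3 in replicate 2. The second flavoprotein gene, sdha-2, had a pooled region of 29.9, with 9.56 in replicate 1 and 21.4 in replicate 2. The membrane anchor gene sdhd-1 had a pooled region of 17.4, and sdhb-1, the gene of the iron-sulfur subunit, had none. The summit at sdha-1 fell inside the non-coding RNA gene D2021.5 and within 200 bp of the snoRNA gene D2021.6, so which of these transcription units the peak belongs to cannot be told apart.

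Complex III, the cytochrome bc1 complex, had an IDR promoter peak at 4 of its 7 genes (57.1%, exact 95% interval 18.4% to 90.1%), with a median pooled signal of 76.0. The gene of cytochrome c1, cyc-1, had 101.1 (chrI:8024580-8024929), with 41.1 in replicate 1 and 62.1 in replicate 2. The 3 genes of core protein 2 differed. ucr-2.2 (chrX:15173553-15173902) had 84.4, with 34.6 and 47.7 in replicates 1 and 2, and ucr-2.1 (chrX:12017964-12018313) had 67.6, with 25.9 and 36.7, while ucr-2.3 had a pooled region of 16 that matched a region in replicate 1 only. The peak of ucr-11 (chrI:6553169-6553518), the gene of a small subunit, had 53.2, with 22.2 and 29.6. All 4 peaks of complex III were higher in replicate 2. The gene of core protein 1, ucr-1, lay below the cutoff at 41.8, with 14.9 in replicate 1 and 21.5 in replicate 2, and isp-1, the gene of the Rieske iron-sulfur protein, had no pooled region. In replicate 1 alone, 2 of the 4 peaks, ucr-11 and ucr-2.1, fell outside the strongest 1898 regions.

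Cytochrome c itself is encoded by cyc-2.1 and cyc-2.2, and neither had a pooled region in its window (0 of 2, exact 95% interval up to 84.2%). For cyc-2.1 this rests on the window. A peak of 606, the fourth strongest of the IDR list, lay 1053 bp upstream of its 5' end, in the window of the ribosomal protein gene rpl-20, which precedes cyc-2.1 on the same strand. A weaker IDR peak of 57.0, with 25.1 in replicate 1 and 28.4 in replicate 2, lay 341 bp inside cyc-2.1, or 222 bp upstream of another annotated start of the gene, in the window of tctn-1.

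Complex IV, cytochrome c oxidase, had the strongest peaks of all the members. Of its 7 subunit genes, 3 had an IDR promoter peak, with a median of 230, and of the 8 genes counted here as its assembly factors 1 had. The peak of cox-5A had a pooled signal of 486 (chrIII:12905096-12905313), with 259 in replicate 1 and 233 in replicate 2, and ranked 9 of 1898 in the IDR list and 10 in either replicate list. The peak of cox-5B had 230 (chrI:9788634-9788726), with 135 in replicate 1 and 94.9 in replicate 2. The peak of cox-6A had 124 (chrIII:5080761-5081110), with 57.1 and 66.2 in replicates 1 and 2. All 3 encode small nuclear-encoded subunits, and none of their peaks lay in the window of another protein-coding gene. The cox-6A summit lay 788 bp upstream of the gene and within 200 bp of the snRNA gene F54D8.7.

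Of the other complex IV subunits, cox-4 had a pooled region of 41.0, with 20.3 in replicate 1 and 17.1 in replicate 2, and cox-6C one of 34.0, with 13.5 and 30.6. No pooled region lay in the windows of cox-6B and cox-7C. The 5' end of cox-6B as annotated belongs to a long transcript, and from the start of its other transcript the nduc-2 peak of 140 lay 168 bp upstream. Among assembly factors, cox-14 had an IDR peak of 65.7 (chrIII:10218622-10218971), with 35 in replicate 1 and 28.1 in replicate 2. The heme A synthesis genes cox-10 and cox-15 had pooled regions of 31.9 and 18.2, and the insertase gene cox-18 one of 17.4. The genes of the copper-handling factors cox-11, cox-17 and cox-19, and cox-16, had none.

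Complex V, the ATP synthase, had an IDR promoter peak at 3 of its 8 genes, with a median of 84.9. The gene of the catalytic-head subunit alpha, atp-1, had 208 (chrI:12652193-12652326), with 100.8 in replicate 1 and 104 in replicate 2. The gene of the stalk subunit b that is known to act in somatic tissues, asb-2, had 84.9 (chrX:4469304-4469653), with 30.4 and 51.3 in replicates 1 and 2. Its paralog asb-1, known for germline expression, had a pooled region of 20.2, with 10.6 and 9.58. The gene of the oligomycin sensitivity subunit, atp-3, had 59.1 (chrI:5429801-5430150), with 42.3 in replicate 1 and 11.6 in replicate 2, where the region ranked 10929. Its log2 ratio of replicate 2 to replicate 1 was -1.87, below the fifth percentile of all genes with an IDR promoter peak (-0.85). The deposited signal of atp-3 was thus higher in replicate 1, while the scaling between replicates is not known. The beta subunit gene atp-2 had a pooled region of 34.7, with 12.5 and 21.5, and atp-4, the gene of coupling factor 6, one of 44.9, with 19.7 and 21.6. The subunit d gene atp-5 had a pooled region of 14.6, and asg-1, a subunit g gene, had none.

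The shares by complex ran from 0 of 2 for cytochrome c to 57.1% for complex III, and their exact intervals overlapped throughout. The order moved with the rule: complex III had 2 of 7 (28.6%) by replicate 1 alone, by the IDR peaks above their median signal, by the first gene of the run or with shared peaks left out, and cytochrome c had 1 of 2 in the wider window, by any transcript start or by the first gene of the run. With 1 group of 2 replicates no test between complexes was made. Within 4 of the families of paralogs above the signals were uneven: nduf-2.2 lay over gas-1, sdha-1 over sdha-2, ucr-2.2 and ucr-2.1 over ucr-2.3, and asb-2 over asb-1, in pooled signal and in each replicate in which both had a region. The peaks of nduf-2.2 and ucr-2.1 lay nearer to the 5' ends of dlc-1 and nmat-1, and by the nearest 5' end only neither member kept its peak. For these 2 genes the contrast is thus one of windows, and the peak cannot be given to the member. The cytochrome c genes had no pooled region in either window.

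**Figure D2:**
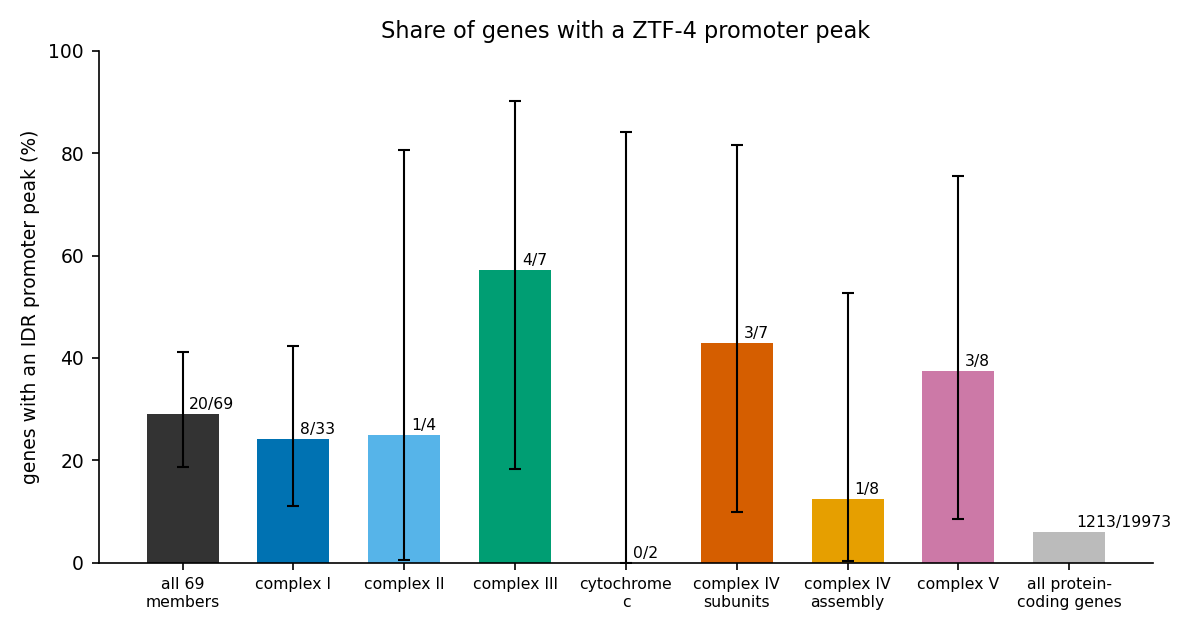
Percent of genes with an IDR promoter peak for all 69 members, for each complex and, at the right, for all protein-coding genes, with exact Clopper-Pearson 95% intervals as bars and the counts beside the columns. The members stand at 29.0% against 6.07% of all genes, and the intervals of the complexes overlap.

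All 20 member peaks had a summit in both replicate lists within 100 bp of the pooled summit, against 1169 of all 1213 genes with an IDR promoter peak. Within 50 bp, 17 had. Of the 20, 16 were among the 1898 strongest regions of both replicates. For the counts of 17 and 16 no share over all genes is given here, so they describe the members only. The log2 ratio of replicate 2 to replicate 1 had a median of 0.05 in the members, against 0.06 over the 1169 genes whose IDR promoter peak had a region in both lists. It ran from -1.87 at atp-3 to 0.98 at nduc-2, and 11 of 20 members were higher in replicate 2. Across the 20 members the replicate signals had a Spearman rho of 0.809, and a Pearson r of 0.772 on the log2 scale, against 0.647 and 0.743 over the 1169 genes. Genes are not independent replicates, and the members' values share the same 2 libraries.

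**Figure D3:**
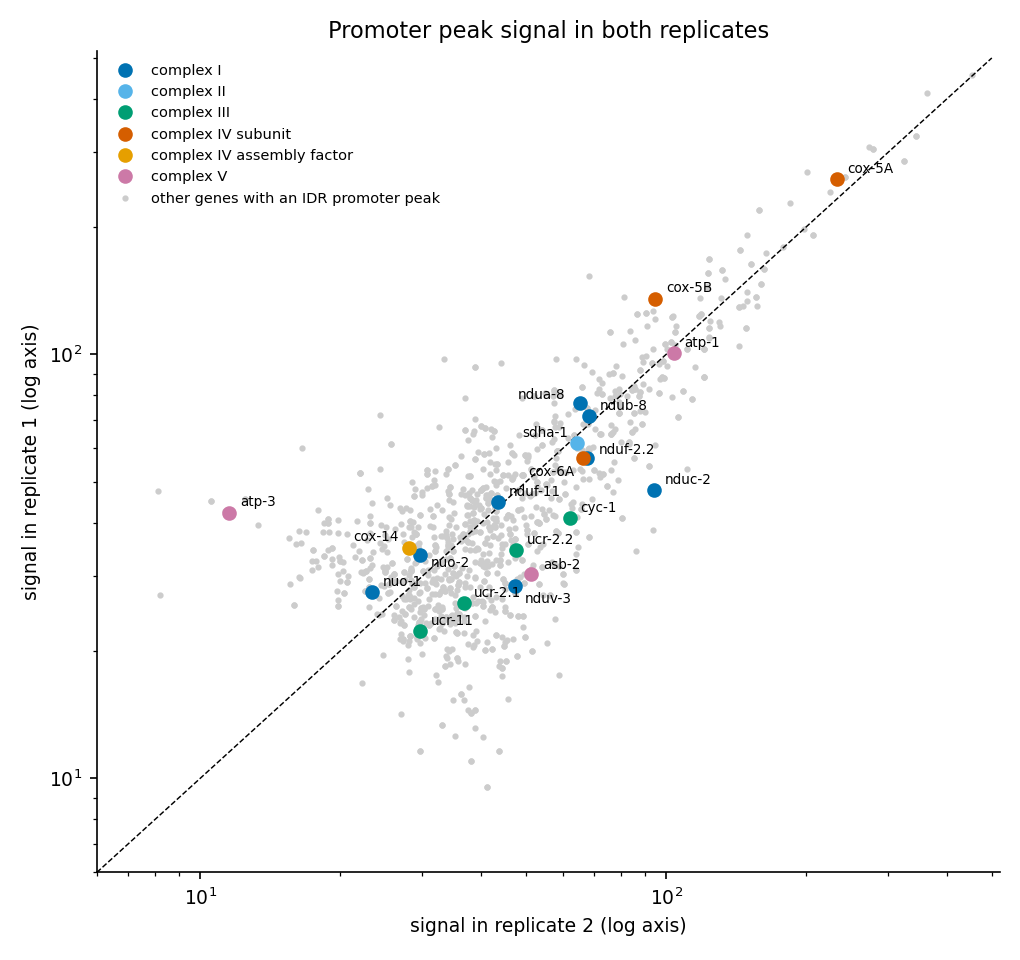
Signal in replicate 1 against replicate 2 (both log axes) for the 20 members with an IDR promoter peak, coloured by complex, over other genes with such a peak in grey, with equal signal as the dashed line. cox-5A lies at 259 and 233, and atp-3 lies far from the line at 42.3 and 11.6 in replicates 1 and 2.

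By the choice of window, every summit counted lay between 1000 bp upstream and 200 bp downstream of the 5' end. In the members the median position was -205.5 bp from the 5' end (negative is upstream), against -246 bp in all genes with an IDR promoter peak. From 400 bp upstream to the 5' end itself lay 16 of 20 member summits (80%), against 66.4%. The summits of cox-5B and atp-1 lay 15 and 10 bp upstream, that of atp-3 68 bp upstream, and that of ucr-11 35 bp downstream, in its coding exon. At the far end, nduf-2.2, nduc-2 and cox-6A had theirs 827, 818 and 788 bp upstream. By annotation 13 summits were intergenic, 4 lay in exons of non-coding genes (nduf-2.2, nuo-1, sdha-1 and atp-3), 1 in an intron, 1 in the 3' UTR of T10E9.14, the gene before nuo-2, and 1 in a coding exon. No shares over all promoter peaks are given here for these locations, so they describe the members' peaks only.

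**Figure D4:**
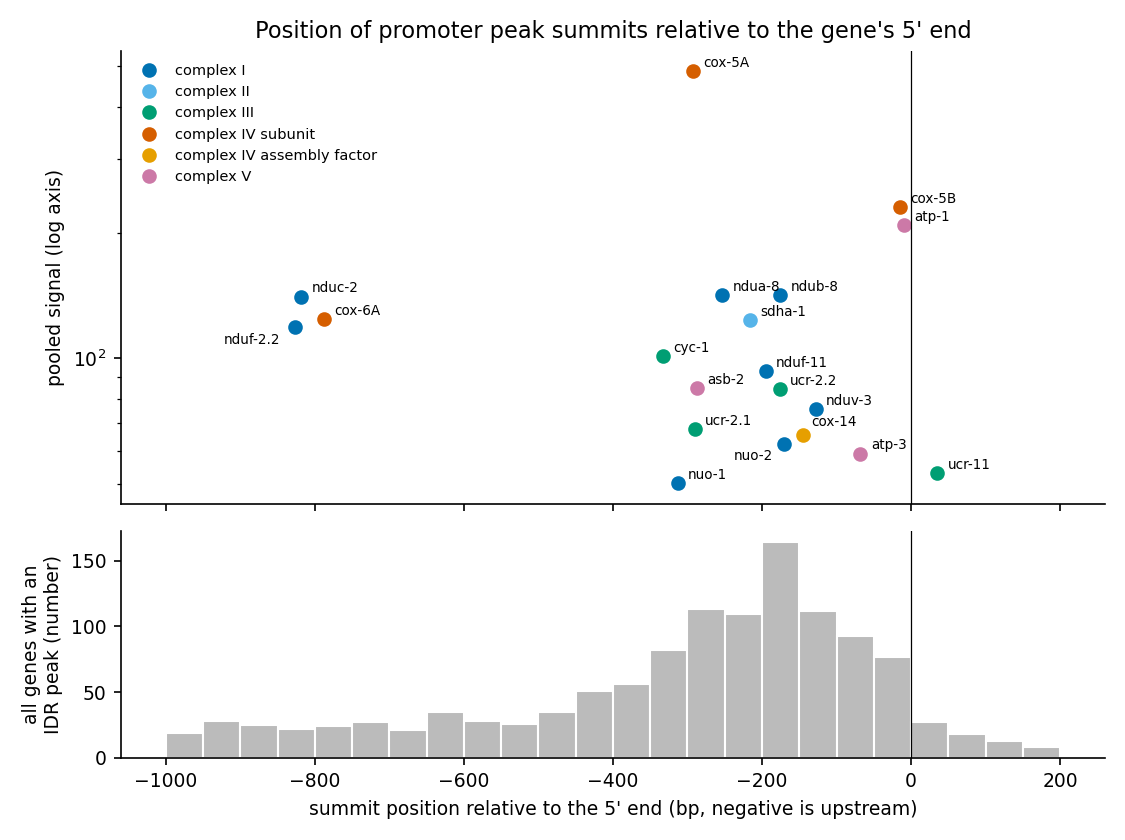
Upper panel, pooled signal (log axis) of the 20 member peaks against the summit position relative to the gene's 5' end in bp, coloured by complex. Lower panel, the number of all genes with an IDR promoter peak per 50 bp of position, where the members' main cluster, 16 of 20 between 400 bp upstream and the 5' end, falls where all genes are most numerous.

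Of the 20 peaks, 11 (55%) also lay in the window of another protein-coding gene, against 48.3% over all genes with an IDR promoter peak, and 10 of the 11 were shared with a gene on the other strand. A peak between such genes cannot be given to either. The neighbours were mcrs-1 for atp-1, cup-14 for ndub-8, rbc-2 and Y54F10AM.15 for ndua-8, Y71H2AM.20 for nduc-2 and F27C1.2 for atp-3. For nduf-2.2 it was dlc-1, a dynein light chain gene, for nduv-3 the spindle checkpoint gene mdf-2, and for ucr-2.1 nmat-1, a gene of NAD synthesis. For cox-14 it was rde-4, whose product binds double-stranded RNA in RNA interference, and for nuo-1 the ribosomal protein gene rpl-36.A. The peak of ucr-11 was shared with spg-20, on the same strand. Of the 69 members, 35 (50.7%) had the 5' end of an opposite-strand gene within 1000 bp upstream, against 17.7% of all protein-coding genes. An IDR promoter peak stood at 9 of these 35 (25.7%) and at 11 of the other 34 members (32.4%), against 13.8% and 4.42% of all genes with and without such a neighbour. The members' share was lower beside a divergent neighbour and that of all genes higher, a contrast that was not tested.

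Of the 69 members, 22 (31.9%) followed another protein-coding gene on the same strand within 500 bp, against 20.2% of all protein-coding genes. Many worm genes so placed are transcribed as operons from the promoter of the first gene, but the annotation used here lists no operons, so these are called runs. Of the 22, 7 had a peak in their own window and 6 had a peak only in the window of the first gene of their run, which makes 13 with either (59.1%), against 15.5% of all genes so placed. The 47 members at the start of a run or alone had a peak in 27.7%, against 6.39% of all such genes. The first-gene peaks included some of the strongest of the series. They were the rpl-20 peak before cyc-2.1 (606 pooled, 286 and 323 in replicates 1 and 2), the lin-54 peak before cox-11 (318, with 163 and 152) and the Y55F3AR.2 peak before cox-18 (189, with 78.3 and 114). Weaker ones stood at syf-2 before nuo-4 (106), rpn-9 before cox-15 (57.0) and ubxn-2 before ndua-12 (53.7). Of these 6 peaks, 5 also lay in the window of another gene: Y17G9B.5 for the rpl-20 peak, the ribosomal protein gene rpl-12 for lin-54, the chaperonin gene cct-8 for Y55F3AR.2, K04G7.1 for syf-2 and T06D8.9 for rpn-9.

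**Figure D5:**
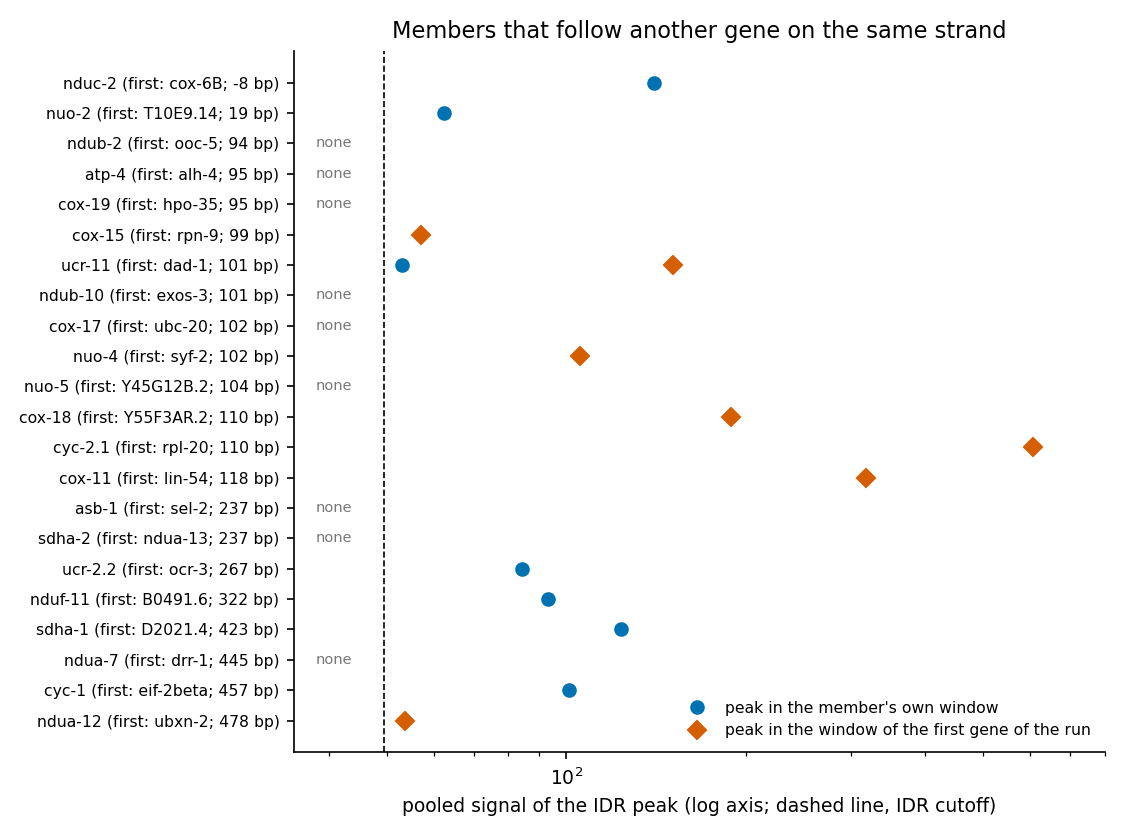
Pooled signal (log axis) of IDR peaks for the 22 members that follow a same-strand gene within 500 bp, ordered by the gap to that gene, with the first gene of the run and the gap in bp beside each name. Circles mark a peak in the member's own window and diamonds a peak in the window of the first gene, "none" marks neither, and 5 of the 6 members with a diamond alone have gaps from 99 to 118 bp.

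The runs were also divided by gap. With up to 150 bp to the gene before, 3 of 14 members had a peak of their own and 5 only at the first gene, against 3.67% and 14.4% of the 2017 genes with such gaps. With 151 to 500 bp, 4 of 8 members, ucr-2.2, nduf-11, sdha-1 and cyc-1, had their own peak and 1 only at the first gene, against 5.98% and 7.02% of 2008 genes. By the gene 5' ends used, only ucr-11 had both, its own peak of 53.2 and the dad-1 peak of 151, 1286 bp upstream of ucr-11. The nduc-2 peak, counted here as its own, lay 168 bp upstream of another annotated start of cox-6B, the first gene of its run. The division into runs was made after the data had been seen.

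The count of members moved with the rule for a peak, and so did the background. By the 1898 strongest regions of replicate 1 alone it was 18, against 5.53% of all genes, and by those of replicate 2 alone 20, against 6.06%, with ndus-8 and cox-6C in place of atp-3 and nuo-1. With the IDR peaks above their own median signal alone it was 14, against 3.41%. A window from 300 bp upstream to 100 bp downstream gave 15, against 3.6%, and one from 2000 bp upstream to 500 bp downstream gave 21, against 8.17%. Given to the nearest 5' end only, the peaks fell to 15 members, against 4.58%, and with shared peaks left out to 9, against 3.15%. The members lost by the nearest 5' end were ndua-8, nduc-2, nduf-2.2, nduv-3 and ucr-2.1. The window of any annotated transcript start gave 22, with cox-6B and cyc-2.1 added, against 6.6%. The window of the first gene of the run gave 20, of which 14 were among the 20 above, against 7.57%. Any region of the pooled list gave 46 members (66.7%), against 32.6%. Under each of these rules the members' share was above the background.

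By chromosome, the members with an IDR promoter peak were 6 of 20 on I, 3 of 11 on II, 6 of 15 on III, 1 of 11 on IV, 0 of 7 on V and 4 of 5 on X. The shares of all protein-coding genes were 7.85%, 5.65%, 9.39%, 5.24%, 4.23% and 5.90% in the same order. The 4 genes on X, sdha-1, asb-2, ucr-2.2 and ucr-2.1, each have a paralog on an autosome with a pooled region only, and the remaining X member, gas-1, has its paralog nduf-2.2 on III.

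Genes of the same pathway that do not carry these names were counted beside the members. Of 11 further respiratory chain and ATP synthase genes found in the annotation, 4 had an IDR promoter peak, against 6.07% of all genes. The strongest were mai-1, the gene of an ATP synthase inhibitor, with 72 pooled and 50.3 in replicate 2 but no matched region in replicate 1, and Y82E9BR.3, an ATP synthase subunit c gene, with 69.8 pooled, 21 and 45.2. The other two were mev-1, the complex II cytochrome b gene, and asg-2. Of 21 genes of the citric acid cycle and pyruvate dehydrogenase 8 had a peak, led by dld-1, the gene of dihydrolipoamide dehydrogenase (155, with 73.2 and 90.2), and the aconitase gene aco-2 (148, with 54.7 and 92.1), whose peak was shared with the translation factor gene eef-1B.1. Of 5 adenine nucleotide and phosphate carrier genes 2 had a peak, F01G4.6 (148) and ant-1.1 (131), and of 15 mitochondrial protein import genes 4, led by tomm-20 (140) and tin-9.1 (114). Of 7 genes of respiratory chain assembly 1 had, sco-1 (139), which encodes a copper chaperone of complex IV. Only names found in the annotation were counted: 11 of 18 listed further genes, 15 of 24 for import and 7 of 12 for assembly. None of 8 ubiquinone synthesis genes had a peak. By an approximate bound, 3 divided by the number of genes, the share could be up to 37.5%. The intervals given above are exact instead.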

How the data were processed

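ChIP-seq regions from 2 biological replicates were used in assembly ce11. The region heights are the signal values that the authors deposited, given per region by their caller. Per the deposited records, the authors called relaxed lists on each replicate and on both pooled, against a control, and derived the IDR peaks from those lists. Not given in the sources used here are the caller, the aligner and the IDR threshold. The ce10 lists were not used. Summits were placed against gene 5' ends of Ensembl release 115 with Python 3.11.15, numpy 2.4.6 and scipy 1.17.1, and each gene took its strongest region by signal. Replicate regions were matched by summits within 100 bp. Window assignment and matching were tested on simulated summits.

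Members, lists and rules were chosen with earlier results of these data known. Named are all members with an IDR promoter peak, the next 5 by pooled signal, up to 2 genes per related list, and neighbours holding a member's peak. Other members and first genes of runs were named after their values were seen. Also named, beyond 2 per related list, were mev-1 and asg-2. Since there was 1 group, no test was made. Alternatives changed the window, peak list, assignment and matching. Intervals cover counting error only, and depth is unknown.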

Additional observations from a re-analysis of the deposited data

How the results depend on the processing

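The count of 20 members was moved by over 1.5 times under 2 alternatives. It was 9 with peaks shared between genes left out and 46 with any region of the pooled list, and the background moved with it. Leaving out a replicate gave 18 to 20 members, a median signal of 43.5 to 56.7 on that replicate's own scale, and 14 to 22 was the range over the remaining alternatives. By complex, leaving out shared peaks gave 2 genes in complex I, 2 in complex III, 1 in complex V and 0 assembly factors, against 1 in complex II and 3 among the complex IV subunits. Complex I had 5 in the narrow window and 4 by the nearest 5' end, and the first gene of the run gave 4 assembly factors and 0 in complex II. The median pooled signal of 97.2 was 84.9 in the narrow window and 101.1 where any overlap with the window counted. The matched peaks numbered 17 with summits within 50 bp and 20 with overlap of regions. The rules by first gene of the run and by any pooled region, and the ratio by the strongest replicate region in the window, which left the median log2 ratio at 0.05, were added after seeing the data. No paired analysis was possible because there was 1 group. The lists hold no reads, so the depth behind each region is unknown. A member without a pooled region is below what the authors' calling reported on the pooled replicates only. Some such members had a region in a replicate list within their window, such as ndua-7 (16.6 in replicate 2) and isp-1 (13.8 in replicate 1).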
